A study of Mus musculus with 20 samples.

Results

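Glucose and lactate transporters are described here through 8 genes, which were chosen by symbol from the 24411 genes of the deposited table: the glucose carriers Slc2a1, Slc2a3 and Slc2a4, the lactate carriers Slc16a1, Slc16a3, Slc16a7 and Slc16a8, and Bsg, the membrane partner of several lactate carriers. All 8 were among the 18807 genes that passed the filter on low values. The RPE and choroid of 4 groups of 5 mice were profiled by RNA-seq to ask how this tissue responds to loss of the retinol transporter STRA6 and to dietary vitamin A. By the methods of the study, the eyecup was treated with dispase, the neural retina was peeled off, and both eyecups of 1 mouse made 1 library.

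All mice were labelled as of the C57BL/6 strain, the methods of the study give C57BL/6J as the background of the knockouts, and the mice were weaned at about 28 days from dams on standard chow. VAS WT mice then received a vitamin A sufficient (VAS) diet with 4 IU vitamin A per g for 12 weeks, and VAD WT mice a vitamin A deficient (VAD) diet with 0 IU per g for the same time. VAS Stra6-/- and VAD Stra6-/- mice, knockouts for Stra6, received the same diets. The knockout mice were bred by the investigators and the WT mice came from a supplier, so that genotype and colony cannot be told apart.

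The RPE lies between the choroidal vessels and the photoreceptors, which depend on glucose that crosses this epithelium. GLUT1, the product of Slc2a1, carries glucose through both RPE membranes, and the photoreceptors return much of it as lactate. Lactate and a proton enter the RPE through MCT1 (Slc16a1) on the apical side and leave through MCT3 (Slc16a8) on the basal side, and basigin, the product of Bsg, is needed to bring both carriers to the membrane.

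The expression measure was the normalized value, a gene count divided by 1 size factor per library, and 13331903 to 21878614 reads stood behind a library. Differences between groups were tested with limma on log2(value + 1) over all genes that passed, and a gene was called at an adjusted p under 0.05. Fold changes of low genes are understated on this scale. The targeted gene Stra6 lay between 2414 and 2742 in VAS WT and between 564 and 694 in VAS Stra6-/-. It lay between 669 and 1529 in VAD WT and between 1973 and 2393 in the libraries labelled VAD Stra6-/-, above VAD WT and thus against the label. Stra6 in VAD WT also lay under every VAS WT library, and its lowest value was within the range of VAS Stra6-/-. Its median in VAD WT was 697, just above the highest VAS Stra6-/- library at 694, whereas its mean there was 986. Every direction drawn below from VAD WT or from the libraries labelled VAD Stra6-/- rests on those labels.

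VAD WT replicates 2 and 4 stood apart from the other 3 libraries of their group, and most differences of the 8 genes that use them are given with and without them. The summed value of 12 RPE markers was 51486 to 55653 in VAD WT replicates 1, 3 and 5, and 108647 and 106017 in replicates 2 and 4. It was 152482 to 170230 in VAS WT, 177087 to 185764 in VAS Stra6-/-, and 639298 to 689782 in the libraries labelled VAD Stra6-/-. Best1, a defining RPE channel gene, stayed under 45 in every library, whereas Rpe65, the retinoid isomerase, lay between 1107 and 45414. By mean, Best1 was lower in labelled VAD Stra6-/- (23.6) than in VAS Stra6-/- (34.2), unlike the other RPE markers. Ttr and Rgr were the largest parts of the RPE sum in labelled VAD Stra6-/-, with means of 176049 and 159852. The summed value of 9 markers of surface epithelium and cornea moved the other way, from 887881 to 922591 in VAS Stra6-/- down to 23765 to 31234 in the libraries labelled VAD Stra6-/-, although the anterior segment had been removed. Of the other lists, the median sum of sclera fibroblast markers went from 38377 in VAS Stra6-/- to 198154 in labelled VAD Stra6-/-. Macrophage markers went from 4826 to 13728, endothelial markers from 7817 to 12155 and erythrocyte markers from 14095 to 23078. Inner retina markers went from 43064 to 48158 and adipocyte markers from 108 to 254, and rod and skeletal muscle markers were lower there. By mean, Cdh5 (endothelium), Hba-a2 (erythrocyte), Grm6 and Snap25 (inner retina) and Myh1 (skeletal muscle) went against their lists in this comparison. VAD WT replicates 2 and 4 also held more than the other 3 of their group of the markers of erythrocytes (44884 and 45389 against 3175 to 3373), sclera fibroblasts (145103 and 148941 against 43967 to 46175), endothelium (13784 and 14235 against 4540 to 4749), skeletal muscle, rods and inner retina. They held less of the markers of surface epithelium and cornea (409032 and 404170 against 1.145e+06 to 1.176e+06). In bulk tissue, fewer cells of a type and less RNA per cell cannot be told apart.

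**Figure D1:**
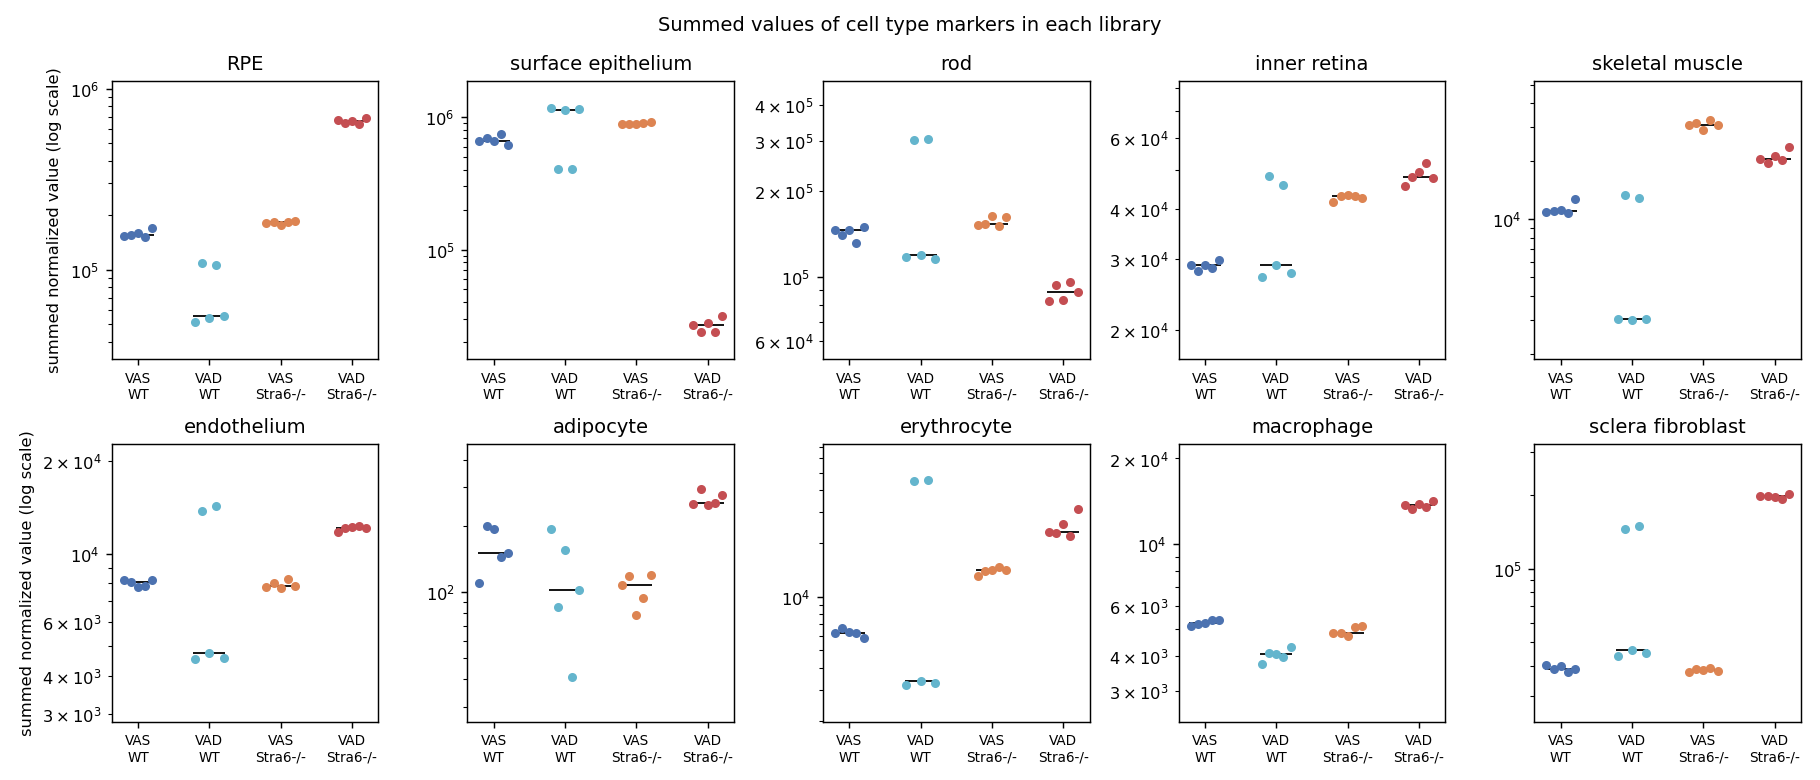
Summed normalized value (log scale) of 10 lists of cell type markers in each of the 20 libraries. Points are libraries and black lines are group medians. The RPE sum is highest in the 5 libraries labelled VAD Stra6-/-, where the sum for surface epithelium is lowest, and 2 of the 5 VAD WT libraries sit apart in 8 of the 10 panels.

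The stretches before the start site are shown for the genes with an entry among the RefSeq promoters of GRCm38.p6, 4 of the 8, because 3 of them (Slc16a1, Slc2a1 and Slc16a8) were among the genes with the largest differences below and 1 (Slc16a3) was not. Annotated exons were left out. Slc16a1 is shown from chr3:104638414-104638663 (plus strand), Slc2a1 from chr4:119108495-119108710 (plus strand), Slc16a3 from chr11:120948817-120949052 (plus strand, inside an intron of a longer transcript) and Slc16a8 from chr15:79254762-79254998 (minus strand). Capitals mark matches to ACGTG (the core bound by hypoxia-inducible factors), CACGTG (an E-box), CATGTG (the other E-box bound by MITF-type factors), GGGCGG (a GC box) or AGGTCA (a nuclear receptor site), searched on both strands; ACGTG also lies within CACGTG.
Slc16a1: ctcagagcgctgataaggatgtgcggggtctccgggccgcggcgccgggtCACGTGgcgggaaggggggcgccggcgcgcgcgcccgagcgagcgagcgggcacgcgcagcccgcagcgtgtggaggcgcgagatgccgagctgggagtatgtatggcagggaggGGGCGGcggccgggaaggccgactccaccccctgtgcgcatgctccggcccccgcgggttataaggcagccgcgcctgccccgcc
Slc2a1: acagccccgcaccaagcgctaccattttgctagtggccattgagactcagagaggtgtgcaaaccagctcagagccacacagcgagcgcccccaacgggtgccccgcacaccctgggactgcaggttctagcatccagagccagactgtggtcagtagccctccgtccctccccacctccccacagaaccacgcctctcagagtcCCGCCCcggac
Slc16a3: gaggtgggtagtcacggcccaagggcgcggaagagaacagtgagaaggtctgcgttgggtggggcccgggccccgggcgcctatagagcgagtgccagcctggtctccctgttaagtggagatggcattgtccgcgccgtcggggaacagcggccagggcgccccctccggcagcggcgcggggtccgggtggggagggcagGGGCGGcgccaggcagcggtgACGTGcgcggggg
Slc16a8: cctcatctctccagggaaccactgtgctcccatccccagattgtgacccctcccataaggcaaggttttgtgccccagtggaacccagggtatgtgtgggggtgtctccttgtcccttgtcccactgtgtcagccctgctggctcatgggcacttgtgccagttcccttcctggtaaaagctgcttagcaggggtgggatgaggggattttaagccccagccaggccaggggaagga

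Over windows of 300 bases, 250 of them before the start site, Slc16a1 held CACGTG at position -200, GGGCGG at -85 and a further ACGTG at 20, counted from the start site. Slc16a3 held ACGTG at -27 and -14, and Slc2a1 held it at -36, outside the stretch shown. GGGCGG also lay at -48 in Slc16a3 and, on the opposite strand, at -45 and -20 in Slc2a1. Slc16a8 matched none of the 5 motifs in its window, which says only that these letters are not there. Of 32544 promoters of the same length, 19.7% held ACGTG, 7.17% CACGTG, 14.2% CATGTG, 35.9% GGGCGG and 16.2% AGGTCA. The matches describe the sequence and are not sites at which binding was measured.

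Slc2a1, the main glucose carrier of the RPE, lies on chr4:119108711-119137983. Its normalized value was 7089, 6885, 7440, 7036 and 7513 in VAS WT and 7256, 7327, 7386, 7634 and 7122 in VAS Stra6-/-. On the VAD diet it was 4218, 5311, 4291, 5668 and 4543 in WT and 19772, 20297, 21144, 20245 and 21927 in the libraries labelled Stra6-/-. The VAS groups overlapped, each VAD WT library lay under them, and each library labelled VAD Stra6-/- lay above. Slc2a1 fell by 0.59 log2 units in VAD WT against VAS WT (standard error 0.08, adjusted p = 2.24e-05, limma). It rose by 1.49 in labelled VAD Stra6-/- against VAS Stra6-/- (standard error 0.08, adjusted p = 5.05e-13, limma) and was higher by 2.11 than in VAD WT (standard error 0.08, adjusted p = 2.46e-15, limma). Without VAD WT replicates 2 and 4 these differences with VAD WT were -0.73 and 2.25 (adjusted p = 3.63e-11 and 1.66e-20, limma). The log2 difference of VAS Stra6-/- from VAS WT was 0.03 (95% interval -0.13 to 0.19, adjusted p = 0.817, limma), and -0.063 after rescaling by the upper quartile.

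Slc2a4 encodes GLUT4, the insulin-responsive carrier of muscle and fat, and lies on chr11:69942539-69948188. Its values were 250, 218, 251, 205 and 262 in VAS WT, 105, 163, 149, 172 and 112 in VAD WT, 301, 283, 247, 252 and 264 in VAS Stra6-/-, and 371, 332, 401, 376 and 367 in labelled VAD Stra6-/-. The order of the groups was that of Slc2a1 at a much lower level, with overlap between the VAS groups alone. The gene fell by 0.78 in VAD WT against VAS WT (standard error 0.14, adjusted p = 0.000634, limma) and rose by 0.46 in labelled VAD Stra6-/- against VAS Stra6-/- (standard error 0.14, adjusted p = 0.00705, limma). The fall in VAD WT was -0.97 without replicates 2 and 4 (adjusted p = 4.18e-06, limma). Labelled VAD Stra6-/- was 1.42 above VAD WT (standard error 0.14, adjusted p = 1.18e-08, limma), or 1.61 without these replicates (adjusted p = 4.18e-10, limma). Muscle and fat are the tissues known for this carrier. The summed value of 8 skeletal muscle markers was 10722 to 12765 in VAS WT and 2995 to 13401 in VAD WT. It was 29105 to 32585 in VAS Stra6-/- and 19465 to 23692 in labelled VAD Stra6-/-. The 5 adipocyte markers summed to 249 to 296 in labelled VAD Stra6-/-, above every other library. They summed to 78.3 to 120 in VAS Stra6-/-, 110 to 199 in VAS WT and 41.1 to 195 in VAD WT. Plin1, a lipid droplet gene of fat cells, was at 0 in 5 of these 15 libraries but reached 13.4 in VAS WT. It was at 8.06 to 30.7 in labelled VAD Stra6-/-. By mean, Plin1, Adipoq and Cfd were highest there, and Cfd (167) held most of the sum. Mean Cidec was 25.4 there and 25.0 in VAS Stra6-/-. Mean Retn was lower there (19.1) than in VAS WT (28.3) and VAD WT (32.3). The summed RPE markers given above were also highest in labelled VAD Stra6-/-. The part of these lists of markers in the result was not tested.

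Slc2a3 encodes GLUT3, a high-affinity carrier known from neurons, and lies on chr6:122727809-122801640. Its values in VAD WT were 228, 523, 177, 540 and 181, so that replicates 2 and 4 stood far above the rest. In VAS WT it was 274, 295, 266, 267 and 247, in VAS Stra6-/- 231, 252, 225, 265 and 174, and in labelled VAD Stra6-/- 195, 205, 253, 212 and 161. The groups overlapped in each of the 4 comparisons, and none was called. The log2 difference of VAD WT from VAS WT was 0.11 (standard error 0.26, adjusted p = 0.861, limma) with all libraries, and without VAD WT replicates 2 and 4 it was -0.47 (adjusted p = 0.0177, limma). In labelled VAD Stra6-/- against VAD WT the difference was -0.51 (standard error 0.26, adjusted p = 0.0969, limma). It was -0.69 without VAD WT replicate 3 (adjusted p = 0.0260, limma), -0.68 without replicate 5 (adjusted p = 0.0297, limma) and 0.067 without replicates 2 and 4 (adjusted p = 0.734, limma), so that its call and its direction depended on which VAD WT libraries were used. Its call also depended on the method, since with all VAD WT libraries it passed in edgeR (-0.70, adjusted p = 0.0421) and DESeq2 (-0.67, adjusted p = 0.0347). The rod marker sums of VAD WT replicates 2 and 4 were 301145 and 303299 against 116318 to 119789 in the other 3, beside the markers of other tissues given above, and the part of these markers in the result was not tested.

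**Figure D2:**
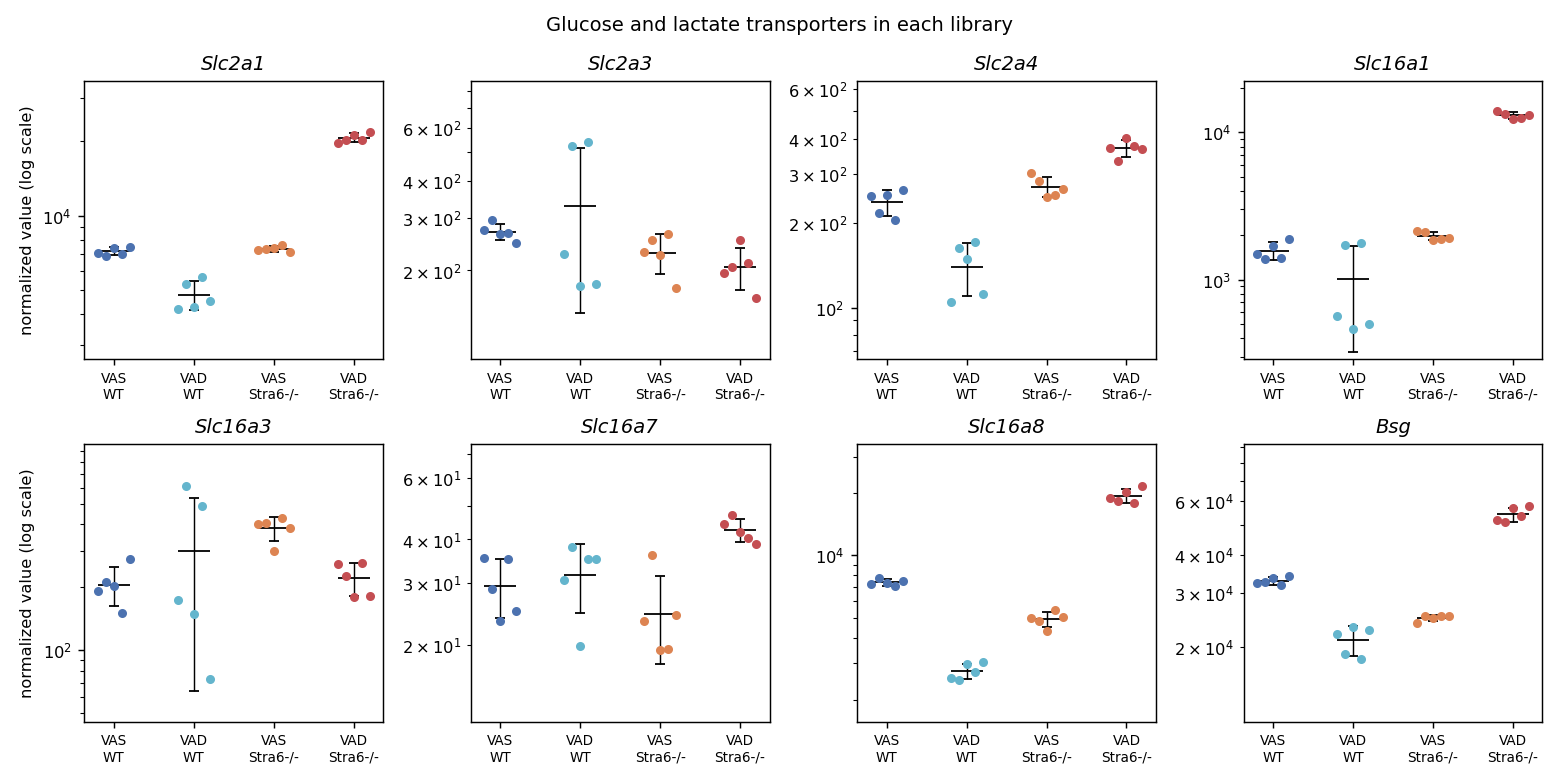
Normalized value (log scale, with a scale of its own in each panel) of the 8 transporters in each of the 20 libraries. Points are libraries, and black lines with bars are group means ± SD (n = 5). The 5 libraries labelled VAD Stra6-/- lie above all others for Slc2a1, Slc2a4, Slc16a1, Slc16a7, Slc16a8 and Bsg. Of all genes tested, 51.3% do not overlap, in either direction, between these libraries and VAS Stra6-/-, and 37.4% between them and VAD WT. VAD WT libraries 2 and 4 lie above the other 3 of their group for Slc2a1, Slc2a3, Slc2a4, Slc16a1 and Slc16a3, and below them for Bsg.

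Among the lactate carriers, Slc16a8 encodes MCT3, which in the eye is found in the basal membrane of the RPE, and lies on chr15:79251014-79254761. Its values were 7238, 7759, 7325, 7129 and 7555 in VAS WT and 2535, 2503, 2967, 2721 and 3032 in VAD WT. In the Stra6-/- groups they were 4970, 4799, 4283, 5416 and 5012 on the VAS diet and 18960, 18242, 20376, 17967 and 21709 on the VAD diet. None of the 4 groups overlapped another. Slc16a8 fell by 1.43 log2 units in VAD WT (standard error 0.08, adjusted p = 7.26e-11, limma) and by 0.60 in VAS Stra6-/- (standard error 0.08, adjusted p = 5.06e-06, limma), each against VAS WT. It rose by 1.99 in labelled VAD Stra6-/- against VAS Stra6-/- (standard error 0.08, adjusted p = 4.16e-15, limma), and the value in labelled VAD Stra6-/- was 2.82 above that in VAD WT (standard error 0.08, adjusted p = 3.02e-17, limma). VAD WT replicates 2 and 4 did not stand apart for this gene, and without them the fall in VAD WT was -1.38 (adjusted p = 5.39e-12, limma) and the difference of labelled VAD Stra6-/- from VAD WT 2.77 (adjusted p = 3.01e-18, limma). An annotated gene on the opposite strand, Gm49486, overlaps Slc16a8, and reads of the pair can be told apart only if the counting used strand, which is not given in the sources used here.

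Slc16a1 encodes MCT1, the carrier of the apical RPE membrane, which many other cells also use, and lies on chr3:104638668-104658462. Its values were 1483, 1378, 1699, 1402 and 1890 in VAS WT and 2142, 2119, 1860, 1897 and 1923 in VAS Stra6-/-. VAD WT split into 565, 463 and 502 in replicates 1, 3 and 5 and 1728 and 1782 in replicates 2 and 4. The libraries labelled VAD Stra6-/- held 13959, 13345, 12384, 12454 and 13229. Each of these lay far above every other library. The rise in labelled VAD Stra6-/- against VAS Stra6-/- was 2.72 log2 units (standard error 0.28, adjusted p = 4.78e-08, limma), the largest of the 8 genes, and the difference from VAD WT was 3.97 (standard error 0.28, adjusted p = 1.33e-10, limma), or 4.68 without VAD WT replicates 2 and 4 (adjusted p = 1.52e-20, limma). The difference of VAD WT from VAS WT, -0.90, missed the threshold (standard error 0.28, adjusted p = 0.0527, limma). When only these 2 groups were fitted, its adjusted p was 0.337 (limma). It passed without replicate 2 (-1.16, adjusted p = 0.00375, limma) or replicate 4 (-1.17, adjusted p = 0.00294, limma), and without both Slc16a1 fell by 1.62 (adjusted p = 1.10e-11, limma). In VAS Stra6-/- against VAS WT the difference was 0.35 (adjusted p = 0.411, limma), with an adjusted p of 0.00916 when only these 2 groups were fitted and 0.000964 when VAD WT replicates 2 and 4 were left out of the shared fit.

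Slc16a3 encodes MCT4, a lactate exporter of glycolytic cells, and lies on chr11:120948480-120960868. It was the member that differed most within VAD WT, with 174, 609, 149, 493 and 72.8. Values in VAS WT were 191, 211, 203, 151 and 273, in VAS Stra6-/- 401, 405, 300, 427 and 387, and in labelled VAD Stra6-/- 260, 226, 180, 261 and 182. VAS Stra6-/- lay above both VAS WT and labelled VAD Stra6-/- without overlap. Fitted with all libraries, neither difference was called: 0.91 against VAS WT (standard error 0.38, adjusted p = 0.0858, limma), and -0.80 for labelled VAD Stra6-/- against VAS Stra6-/- (standard error 0.38, adjusted p = 0.0857, limma). Fitted on the compared groups alone, their adjusted p was 0.00072 and 0.000599 (limma). Both also passed without VAD WT replicate 2 (adjusted p = 0.0349 and 0.0376, limma) or replicate 5 (adjusted p = 0.0278 and 0.0294, limma), libraries that enter only through the shared spread, and without replicates 2 and 4 together (adjusted p = 0.001 and 0.00166, limma). The value for VAD WT against VAS WT was 0.15 (adjusted p = 0.872, limma) with all libraries and -0.71 (adjusted p = 0.0206, limma) without replicates 2 and 4. For labelled VAD Stra6-/- against VAD WT it was -0.04 (adjusted p = 0.953, limma) with them and 0.82 (adjusted p = 0.00418, limma) without them.

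Slc16a7 encodes MCT2, a high-affinity carrier that mostly takes up lactate and pyruvate, and lies on chr10:125219270-125389465. It was the lowest member, at 19.3 to 38.1 in the 15 libraries of the other 3 groups and 38.9 to 46.9 in labelled VAD Stra6-/-. The gene rose by 0.80 in labelled VAD Stra6-/- against VAS Stra6-/- (standard error 0.26, adjusted p = 0.0129, limma), and the difference from VAD WT was 0.44 (standard error 0.26, adjusted p = 0.164, limma), or 0.59 without VAD WT replicates 2 and 4 (adjusted p = 0.0995, limma).

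Bsg, the partner without which MCT1 and MCT3 do not reach the membrane, lies on chr10:79704491-79711969 and was the highest member in each group. Its values were 32394, 32580, 33738, 31898 and 34181 in VAS WT, and 22148, 18928, 23327, 18258 and 22767 in VAD WT. They were 23923, 25219, 24955, 25292 and 25278 in VAS Stra6-/- and 52051, 51136, 56866, 53580 and 57790 in labelled VAD Stra6-/-. As for Slc16a8, the 4 groups did not overlap and stood in the same order. Bsg fell by 0.40 in VAS Stra6-/- (standard error 0.09, adjusted p = 0.00219, limma) and by 0.65 in VAD WT (standard error 0.09, adjusted p = 6.15e-05, limma), each against VAS WT. It rose by 1.12 in labelled VAD Stra6-/- against VAS Stra6-/- (standard error 0.09, adjusted p = 9.13e-10, limma), and was 1.37 higher there than in VAD WT (standard error 0.09, adjusted p = 3.95e-11, limma). Without VAD WT replicates 2 and 4 the differences with VAD WT were -0.53 and 1.25 (adjusted p = 7.97e-09 and 6.75e-16, limma).

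Counted over the 8 genes, 2 were lower and 0 higher in VAS Stra6-/- against VAS WT, where 10.8% of all genes tested were lower and 15.9% higher. Of the 6 that were not called, 1 (Slc16a3) had an unadjusted p under 0.05. In VAD WT against VAS WT, 4 of the 8 fell and 0 rose, against 5.5% and 3.29% of all genes. With VAD WT replicates 2 and 4 left out, 7 of the 8 fell there, but 20.3% of all genes then fell and 17.6% rose. In labelled VAD Stra6-/- against VAS Stra6-/-, 6 of the 8 were higher and 0 lower, where 24.4% of all genes were higher and 28.8% lower. The comparison of labelled VAD Stra6-/- with VAD WT gave 5 higher and 0 lower, beside 26.2% and 29.6%, and without VAD WT replicates 2 and 4 it gave 6 higher and 0 lower, beside 30.7% and 32.5%. The median log2 difference of the 8 genes in these 4 comparisons was -0.11, -0.62, 0.96 and 1.39, and that of all genes was 0.02, 0.00, -0.07 and -0.05. In the same 4 comparisons the groups did not overlap for 3, 4, 7 and 6 of the 8 genes. Of all genes tested, 32.5%, 6.34%, 51.3% and 37.4% did not overlap. The comparisons share groups and are not independent of each other.

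The effect of the VAD diet differed between the genotypes for 5 of the 8 genes, where 44.2% of all genes passed this test. The diet effect in the groups labelled Stra6-/- minus that in WT was 2.08 for Slc2a1 (standard error 0.11, adjusted p = 1.85e-12, limma) and 1.23 for Slc2a4 (standard error 0.19, adjusted p = 1.74e-05, limma). For Slc16a1 it was 3.62 (standard error 0.40, adjusted p = 2.00e-07, limma), for Slc16a8 3.42 (standard error 0.11, adjusted p = 9.35e-16, limma) and for Bsg 1.77 (standard error 0.13, adjusted p = 3.55e-10, limma). Slc2a3, Slc16a3 and Slc16a7 were not called, at -0.27, -0.95 and 0.71 (adjusted p = 0.586, 0.169 and 0.127, limma). Without VAD WT replicates 2 and 4 the 5 called values were 2.22 for Slc2a1, 1.42 for Slc2a4, 4.33 for Slc16a1, 3.37 for Slc16a8 and 1.66 for Bsg, each called again, where 54.7% of all genes passed. Slc16a3 was then at -0.094 (adjusted p = 0.821, limma). With these libraries it passed without VAD WT replicate 5 (-1.35, adjusted p = 0.0164, limma), in edgeR (-1.41, adjusted p = 0.0425) and in DESeq2 (-1.40, adjusted p = 0.0235), so its difference rested on replicates 2 and 4.

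**Figure D3:**
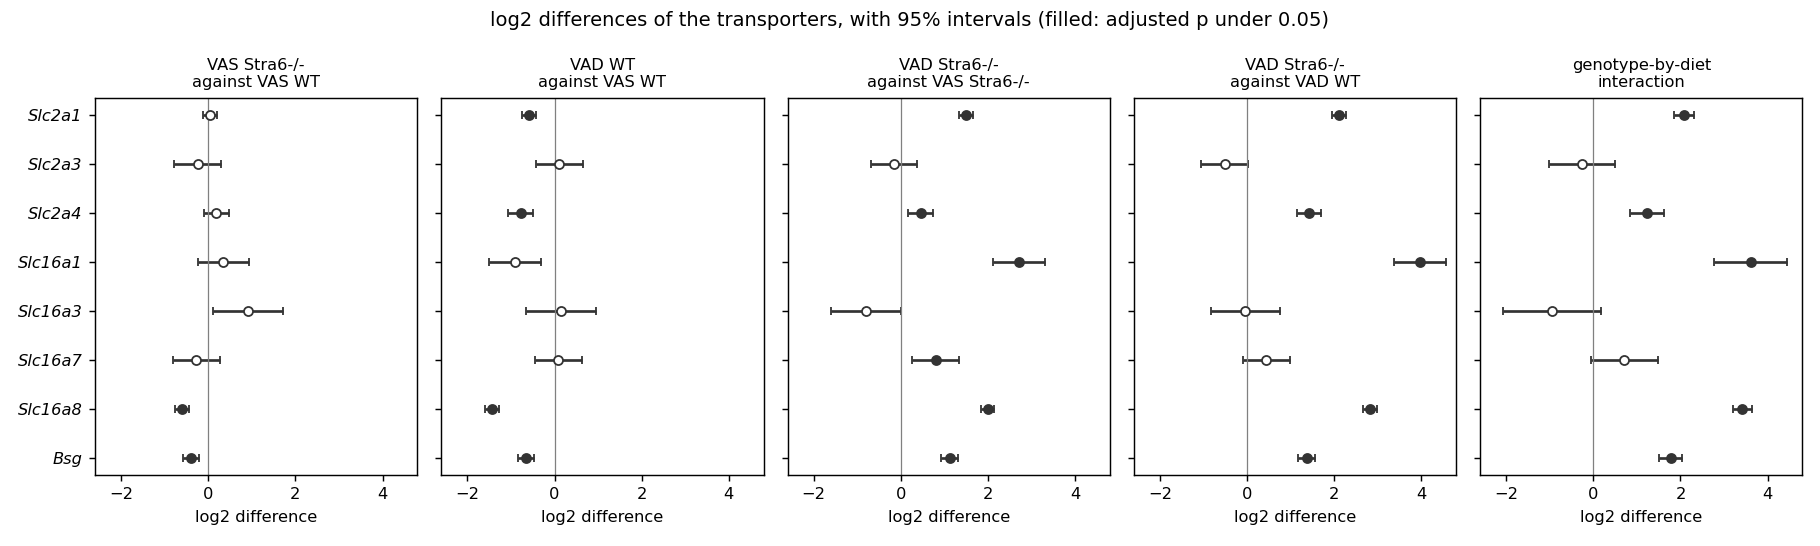
log2 differences of the 8 transporters in 4 comparisons and in the genotype-by-diet interaction (diet effect in Stra6-/- minus that in WT). Points are limma estimates with 95% intervals, filled where the adjusted p over all genes tested was under 0.05. Bsg, Slc16a8, Slc2a1 and Slc2a4 are filled left of 0 for VAD WT and right of 0 for labelled VAD Stra6-/-, and Slc16a1 has the largest differences in the latter.

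Levels of different members can be compared per kb of exon. In VAS WT the normalized value per kb was 18169 for Bsg, 3252 for Slc16a8, 2051 for Slc2a1, 355 for Slc16a1, 68.2 for Slc2a4, 38.8 for Slc16a3, 37.2 for Slc2a3 and 2.49 for Slc16a7. Of neighbours in this order, Slc16a3 and Slc2a3 alone overlapped. VAS Stra6-/- had the same order, but there Slc16a8 and Slc2a1, at 2151 and 2095, overlapped, as did Slc2a4 and Slc16a3. In VAD WT, Slc2a1 at 1371 and Slc16a8 at 1209 overlapped, with Slc2a1 the higher of the pair by its mean. In labelled VAD Stra6-/- the order was again that of VAS WT, with 29925 for Bsg, 8546 for Slc16a8, 5898 for Slc2a1 and 2954 for Slc16a1.

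The make-up of the carriers was compared per kb. Values are mean ± SD of 5 libraries, and no test was run on the shares. Slc2a1 made up 95.1% ± 0.22 of the 3 glucose carriers per kb in VAS WT and 97.8% ± 0.178 in labelled VAD Stra6-/-. Of the 4 lactate carriers, Slc16a8 made up 89.2% ± 1.3 in VAS WT, 80.4% ± 1.35 in VAS Stra6-/- and 74.0% ± 1.85 in labelled VAD Stra6-/-. The share of Slc16a1 was 9.72% ± 1.18, 16.8% ± 1.37 and 25.6% ± 1.78 in these groups, at most 11.2% in a VAS WT library and at least 23.7% in a labelled VAD Stra6-/- library. In VAD WT it ranged from 7.27% to 24.3%. Bsg per kb was 4.98 ± 0.129 times the sum of the 4 lactate carriers in VAS WT, 5.16 ± 0.416 times in VAS Stra6-/-, 7.90 ± 1.59 times in VAD WT (9.03 ± 0.496 without replicates 2 and 4, which were at 5.94 and 6.49) and 2.59 ± 0.105 times in labelled VAD Stra6-/-. The log2 ratio differed by -0.99 in labelled VAD Stra6-/- against VAS Stra6-/- (adjusted p = 0.0106 over 4 comparisons, two-sided exact permutation test), where the smallest p before adjustment that 5 against 5 libraries allow is 0.00794.

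Because RPE markers moved with the groups, each transporter was also set against the mean log2 value of the 12 RPE markers in its own library. A transporter with an unchanged value of its own thus moves against that mean. That mean differed by 0.19 in VAS Stra6-/- against VAS WT, by -1.06 in VAD WT against VAS WT, by 1.95 in labelled VAD Stra6-/- against VAS Stra6-/- and by 3.20 in labelled VAD Stra6-/- against VAD WT. Relative to it, Slc16a8 differed by 0.04 between labelled VAD Stra6-/- and VAS Stra6-/- (adjusted p = 0.639, two-sided exact permutation test, adjusted over 32 tests). Slc16a1 was higher by 0.77 in that comparison, while Slc2a1 was lower, at -0.46, as were Bsg at -0.83, Slc2a4 at -1.49, Slc16a7 at -1.15, Slc2a3 at -2.11 and Slc16a3 at -2.75 (each with adjusted p = 0.0134, exact permutation test). In VAS Stra6-/- against VAS WT, Slc16a8 at -0.79 and Bsg at -0.60 were lower, and Slc16a3 was higher by 0.72 (each with adjusted p = 0.0134, exact permutation test). Slc2a1 at -0.16 and Slc2a3 at -0.44 were also lower there (both adjusted p = 0.0363, exact permutation test).

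In the comparisons with VAD WT, where the RPE markers were lowest, several signs relative to the markers were opposite to those of the normalized values. In VAD WT against VAS WT, Slc2a3 at 1.16, Slc16a7 at 1.14 (both adjusted p = 0.0134, exact permutation test) and Slc16a3 at 1.21 (adjusted p = 0.0462, exact permutation test) were higher relative to the markers. Their normalized values were not called there, at 0.11, 0.088 and 0.15, while the mean of the markers differed by -1.06. These 3 relative values therefore mostly restate the difference of the markers. Relative to the markers, Slc2a1 was at 0.47 (adjusted p = 0.0663, exact permutation test), Bsg at 0.40 and Slc2a4 at 0.28, which missed the threshold, although the normalized values of these 3 genes fell. Without VAD WT replicates 2 and 4, Slc2a1, Bsg and Slc2a4 passed, at 0.73, 0.92 and 0.49 (each with adjusted p = 0.0248, exact permutation test), and Slc16a3 did not, at 0.75 (adjusted p = 0.0816, exact permutation test). In labelled VAD Stra6-/- against VAD WT, Slc16a1 was higher by 0.77, and Slc2a1 at -1.08, Bsg at -1.83, Slc2a4 at -1.78, Slc16a7 at -2.76, Slc16a3 at -3.24 and Slc2a3 at -3.71 were lower (each with adjusted p = 0.0134, exact permutation test). Slc16a8 was at -0.38 (adjusted p = 0.198, exact permutation test), and at -0.83 without replicates 2 and 4 (adjusted p = 0.0248, exact permutation test).

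The choice of RPE genes decided some of these values. With the melanosome genes of the list as the reference, labelled VAD Stra6-/- against VAS Stra6-/- gave 0.26 for Slc2a1 and 0.75 for Slc16a8 (both adjusted p = 0.0134, exact permutation test). With its visual cycle genes, Slc16a8 was at -0.53 (adjusted p = 0.0106, exact permutation test). The directions of Slc2a1 and Slc16a8 relative to RPE RNA in that comparison therefore depend on the reference, whereas those of the other 6 genes did not turn with either reference.

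**Figure D4:**
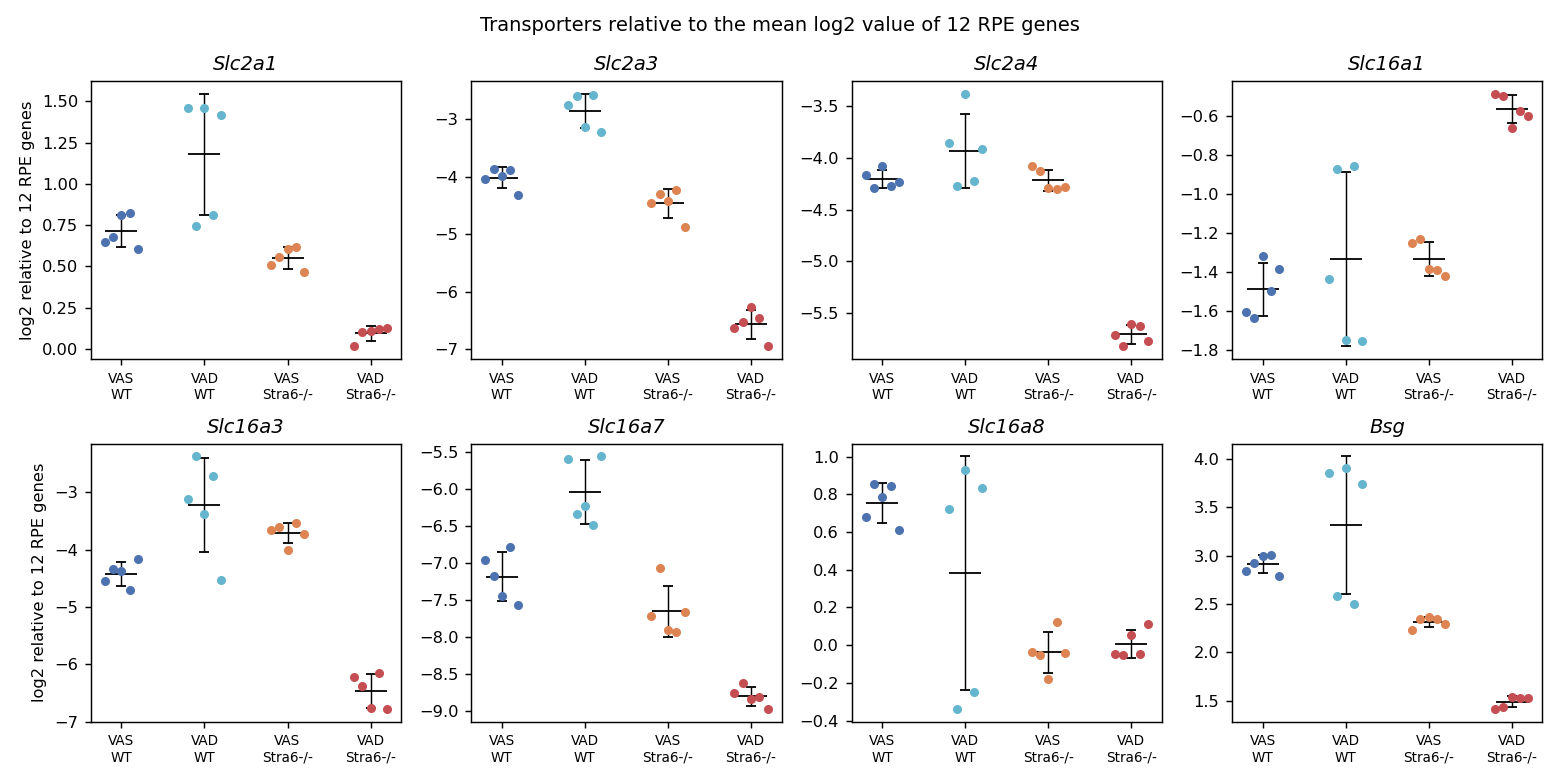
log2 value of the 8 transporters minus the mean log2 value of 12 RPE markers, in each of the 20 libraries (a scale of its own in each panel). Points are libraries, and black lines with bars are group means ± SD (n = 5). Slc16a1 is highest in the libraries labelled VAD Stra6-/-, the ranges of Slc16a8 overlap between the Stra6-/- groups, and the other 6 genes are lowest in labelled VAD Stra6-/-; these positions hold for the 12 markers as the reference.

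The wider set of glucose, lactate and pyruvate handling genes, 31 in all, all passed the filter. In VAS Stra6-/- against VAS WT 4 rose and 1 fell, in VAD WT against VAS WT 1 rose and 8 fell, in labelled VAD Stra6-/- against VAS Stra6-/- 10 rose and 9 fell, and in labelled VAD Stra6-/- against VAD WT 9 were higher and 10 lower. These counts stand beside 15.9% and 10.8%, 3.29% and 5.5%, 24.4% and 28.8%, and 26.2% and 29.6% of all genes higher and lower in the same comparisons. Without VAD WT replicates 2 and 4, 4 rose and 12 fell in VAD WT against VAS WT, beside 17.6% and 20.3% of all genes. In labelled VAD Stra6-/- against VAD WT, 10 were then higher and 12 lower, beside 30.7% and 32.5%. The other glucose carriers moved in both directions. Slc5a1, the sodium-coupled glucose carrier SGLT1 known from gut and other epithelia, was 3124 to 3363 in VAS WT, 679 to 1639 in VAD WT, 3656 to 4055 in VAS Stra6-/- and 26.2 to 67.6 in labelled VAD Stra6-/-. It fell by 6.30 in labelled VAD Stra6-/- against VAS Stra6-/- (standard error 0.23, adjusted p = 1.44e-15, limma). Slc2a12, the carrier GLUT12, rose by 2.35 in that comparison (standard error 0.10, adjusted p = 2.97e-14, limma), from 266 to 298 up to 1361 to 1513. Summed markers of surface epithelium, rods and skeletal muscle were lower in labelled VAD Stra6-/- than in VAS Stra6-/-, as given above. Those of RPE, sclera fibroblasts, macrophages, endothelium, erythrocytes, inner retina and adipocytes were higher there. The part of all these markers in these differences was not tested.

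Among the other SLC16 carriers, the creatine and carnitine carrier Slc16a9 rose by 2.61 and the orphan carrier Slc16a4 by 1.83 in labelled VAD Stra6-/- against VAS Stra6-/- (adjusted p = 2.84e-09 and 0.000784, limma). Slc16a11 and the sodium-coupled lactate carrier Slc5a8 fell by 4.62 and 5.25 (adjusted p = 1.05e-13 and 2.40e-16, limma). The other partners of lactate carriers, Emb (embigin) and Nptn (neuroplastin), rose by 1.05 and 0.48 (adjusted p = 4.20e-07 and 1.13e-05, limma). Arrdc4, an arrestin that draws glucose carriers from the membrane, fell by 2.53 (adjusted p = 4.72e-17, limma). Its relative Txnip was at 0.22 (adjusted p = 0.184, limma).

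The lactate dehydrogenase genes went in opposite directions. Ldhb, whose heart-type subunit is known from tissues that take up lactate, was 3377 to 3644 in VAS Stra6-/- and 9645 to 12762 in labelled VAD Stra6-/-, a rise of 1.62 (standard error 0.16, adjusted p = 2.28e-08, limma). Ldha, whose muscle-type subunit is known from lactate-producing tissues, fell by 0.60 (standard error 0.06, adjusted p = 4.17e-08, limma), from 11004 to 12014 down to 7391 to 8046. Mpc1, a subunit of the mitochondrial pyruvate carrier, rose by 0.51 (adjusted p = 0.0265, limma), and Mpc2, its other subunit, was at -0.38 (adjusted p = 0.0925, limma).

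**Figure D5:**
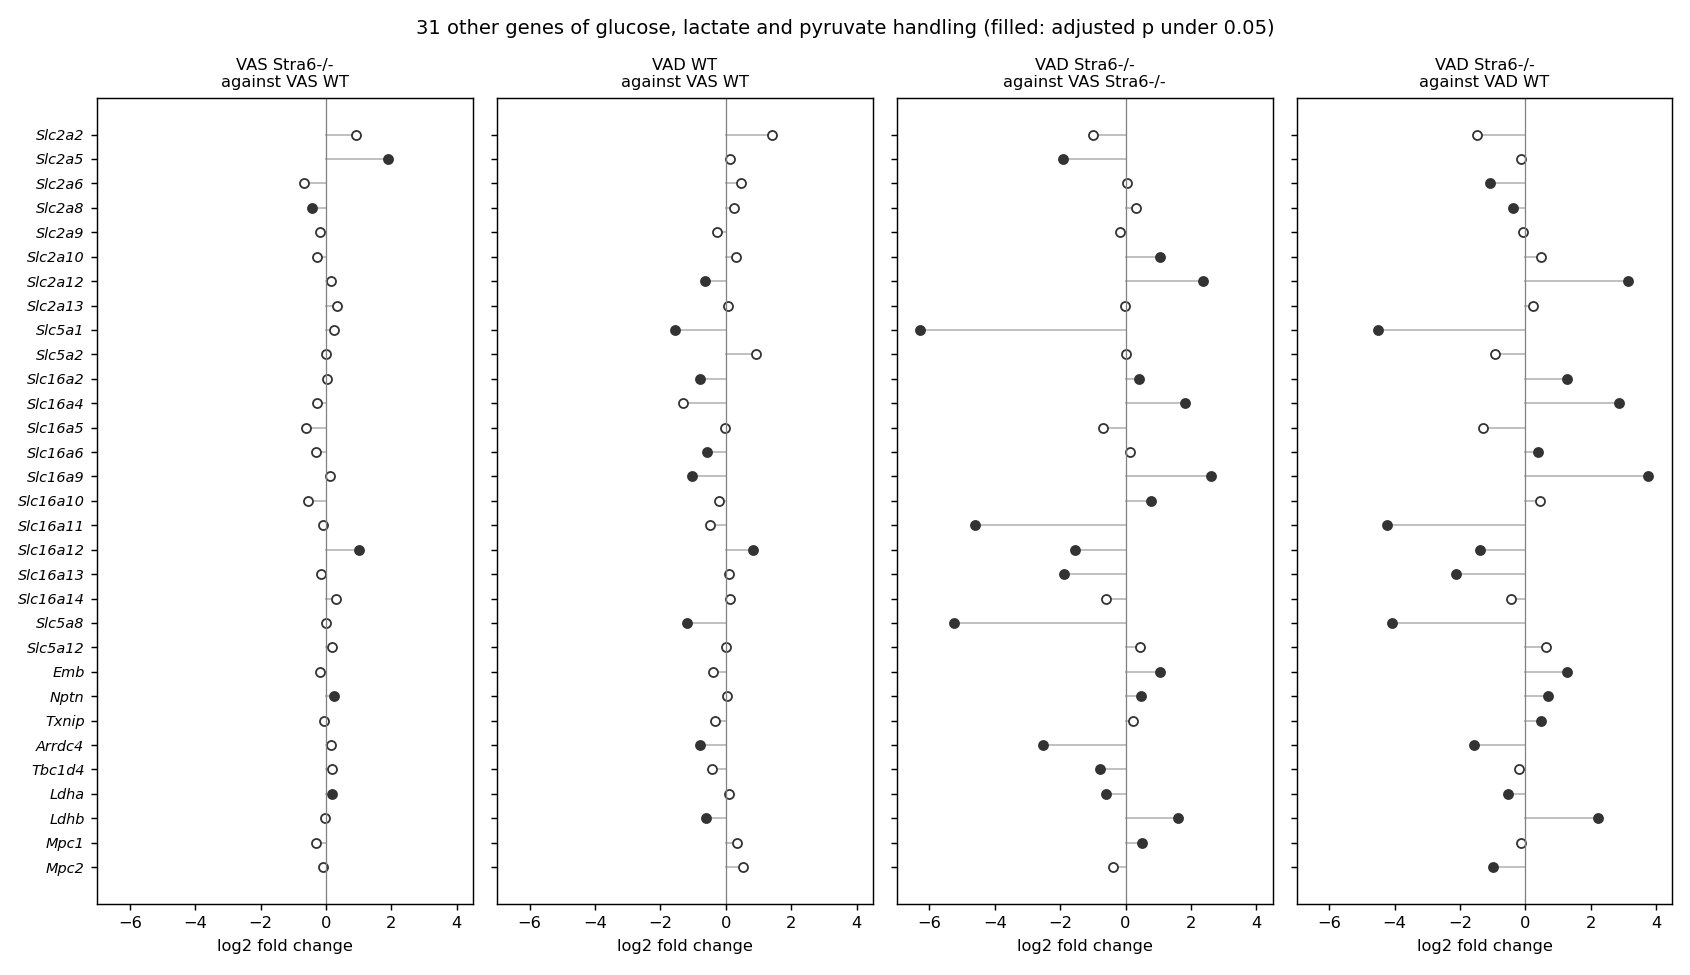
log2 fold changes of the 31 other genes of glucose, lactate and pyruvate handling in the 4 comparisons. Points are limma estimates, filled where the adjusted p over all genes tested was under 0.05. In the 2 comparisons with labelled VAD Stra6-/-, Slc5a1, Slc5a8 and Slc16a11 lie farthest left and Slc2a12, Slc16a9 and Slc16a4 farthest right.

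Across the 20 libraries, the genes most like each member were named by Pearson's r of log2(value + 1) among 12299 genes with a mean value of at least 100. They were Arl6ip1 for Slc2a1 (r = 0.997), Mllt6 for Slc2a3 (r = 0.908), Ttr for Slc2a4 (r = 0.955), Tmem56 for Slc16a1 (r = 0.996), Zmiz1 for Slc16a3 (r = 0.910), Fam35a for Slc16a7 (r = 0.840), Slc7a10 for Slc16a8 (r = 0.991) and Slc6a13 for Bsg (r = 0.990). For Slc16a1 the next were Atp1b1 and the melanosome exchanger Slc24a5 (both r = 0.995). For Slc2a3 the photoreceptor factor Crx was also among the 3 most alike (r = 0.897). Among the members themselves, Slc16a8 and Bsg were most alike over the 20 libraries (r = 0.983), and over the 15 not labelled VAD Stra6-/- it was Slc2a1 and Slc2a4 (r = 0.943), with Slc16a8 and Bsg at 0.934. All points share 4 groups and the same size factors, so these values describe the libraries and have no test.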

How the data were processed

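The 20 libraries were grouped by the genotype and diet in the labels. The submitters' processing notes name STAR 2.5.3a, RSEM 1.2.30 and DESeq2 1.32.0 with GRCm38/mm10. The deposited values are a signal that the authors made by dividing each gene's count by a size factor for the library. In 19 libraries whole reads were recovered for every gene (tolerance 0.01). For VAD Stra6-/- replicate 1 the step was too near 1 to claim, so this library was used in limma and left out of edgeR and DESeq2.

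The 18807 genes whose recovered reads summed to 5 or more were fitted with limma 3.58.1 in R 4.3.3 on log2(value + 1), with 4 group means, all 20 libraries, an intensity trend and Benjamini-Hochberg adjustment. edgeR 4.0.16, DESeq2 1.42.0, other scalings, filters, pseudocounts, a replicate block and left-out libraries were alternatives. Values relative to RPE markers and ratios were compared with exact permutation tests. Melanosome genes were Pmel, Tyrp1 and Dct, and visual cycle genes Rpe65, Lrat, Rlbp1, Rdh5, Rgr and Rrh.

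The members and lists were chosen with earlier results of these data known. The rule named every member, Stra6, the 31 listed genes and, per member, the 3 genes most like it. The report gives the first of these for each member and some of the others, and 1 result under the rule is not reported here. The fit was tested on simulated data. Positions and exon lengths come from GENCODE vM21. Libraries of a group differed by more than counting noise (chi-square per gene 3.35 to 194), so none was the same library sequenced again. Separate preparations of the same RNA can also differ by more than this noise. That each library came from its own mouse therefore rests on the methods of the study. Same-numbered libraries of different groups correlated at -0.23 to 0.14, so the numbers do not pair them. p-values measure the spread between these mice only.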

Additional observations from a re-analysis of the deposited data

Results flagged for a closer look

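The effect of the VAD diet on 5 of the 8 transporters differed between the genotypes by a test of the difference itself (limma). Of all genes tested, 44.2% passed this test. The diet effect in the groups labelled Stra6-/- minus that in WT was 2.08 for Slc2a1, 1.23 for Slc2a4, 3.62 for Slc16a1, 3.42 for Slc16a8 and 1.77 for Bsg on the log2 scale. In each case the mean was lower in VAD WT than in VAS WT and higher in labelled VAD Stra6-/- than in VAS Stra6-/-, although the fall of Slc16a1 in VAD WT missed the threshold with all libraries. Without VAD WT libraries 2 and 4 the values were 2.22, 1.42, 4.33, 3.37 and 1.66, where 54.7% of all genes passed. The test rests on the labels of both VAD groups, and in the libraries labelled VAD Stra6-/- Stra6 goes against the label.

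Bsg in VAS Stra6-/- replicate 1, at 23923, was the lowest of its group, and its gap to the nearest library was 0.754 of the range of the group. It was the single such value among 32 groups of 5, and chance flags about 1 group in 20.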

How the results depend on the processing

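The number of transporters called in VAS Stra6-/- against VAS WT was 2. It was 4 (2 higher, 2 lower) when only the compared groups were fitted, where 24.1% of all genes were higher and 19.5% lower. It was also 4 (2 higher, 2 lower) without VAD WT libraries 2 and 4, beside 22.5% and 17.5%. When the log2 fold change also had to be beyond 1 it was 0, beside 621 higher and 305 lower of the 18807 genes tested. In VAD WT against VAS WT the number was 4. Without VAD WT libraries 2 and 4 it was 7. The calls over all genes then went from 618 higher and 1034 lower to 3306 and 3818. With all libraries and a log2 fold change beyond 1 it was 1, beside 69 higher and 259 lower of the 18807 genes. All other alternatives left the 5 counts within 1.5 times, including the replicate block, under which they were 2, 4, 6, 5 and 5; the block changed no call of a transporter count. Rescaling by the upper quartile moved the calls over all genes in VAS Stra6-/- against VAS WT from 2984 higher and 2026 lower to 2309 and 2931, and turned Slc2a1 there to -0.063 (not called).

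Without VAD WT libraries 2 and 4, the sign turned for Slc2a3 (-0.47 against VAS WT, 0.067 for labelled VAD Stra6-/- against VAD WT, and 0.31 for the interaction), Slc16a3 (-0.71 against VAS WT and 0.82 for labelled VAD Stra6-/- against VAD WT) and Slc16a7 (-0.066 against VAS WT). Leaving out 1 library at a time gave -0.12 to 0.29 for Slc2a3 and -0.21 to 0.55 for Slc16a3 in VAD WT against VAS WT, and -0.44 to 0.32 for Slc16a3 in labelled VAD Stra6-/- against VAD WT. The cause was not tested.

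Relative to melanosome genes in place of all 12 RPE markers, the sign turned for Slc2a1 (-0.010), Slc2a4 (-0.20), Slc16a1 (-0.32) and Bsg (-0.070) in VAD WT against VAS WT, for Slc16a1 (-0.17) in VAS Stra6-/- against VAS WT, for Slc2a1 (0.26) in labelled VAD Stra6-/- against VAS Stra6-/- and for Slc16a8 (0.49) in labelled VAD Stra6-/- against VAD WT. Relative to visual cycle genes it turned for Slc2a1 (0.0054) and Slc2a4 (0.16) in VAS Stra6-/- against VAS WT and for Slc16a8 (-0.53) in labelled VAD Stra6-/- against VAS Stra6-/-. Without VAD WT libraries 2 and 4 it turned for Slc16a1 (-0.16) and Slc16a8 (0.075) in VAD WT against VAS WT, relative to all 12 markers. Slc2a4 in VAS Stra6-/- against VAS WT was -0.0436 to 0.024 with 1 library left out.

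Of all alternative values, 1232 log2 fold changes kept their direction and their side of the threshold, 25 newly passed it and 15 turned, and relative to RPE markers these numbers were 397, 17 and 16, with 18 that no longer passed. With the longest transcript in place of all exons as the length, the share of Slc16a1 among the lactate carriers was 7.87% in VAS WT, 13.9% in VAS Stra6-/- and 21.5% in labelled VAD Stra6-/-. Slc16a7, the lowest member, had the least depth.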
